A study of Mus musculus with 15 samples.

Results

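The growth hormone and IGF axis was followed through 10 genes in the aging mouse kidney, namely the growth hormone receptor Ghr, the growth factor Igf1, the receptors Igf1r, Igf2r and Insr, and the binding proteins Igfbp1, Igfbp3, Igfbp4, Igfbp5 and Igfbp7. They were taken by name from a fixed list out of 33058 genes with a value, and all 10 were found. A gene value is the sum of the FPKM (fragments scaled by transcript length and by the fragments sequenced) of the transcripts assigned to the gene, which were 60 of 62 listed for these genes, and the values below are for whole kidney. The study asked how the kidney transcriptome differs with age, and it used male C57BL/6 mice on standard chow at 3, 12 and 24 months, with 5 mice at each age and 1 library per mouse. The labels name no transgene or treatment, per the study's methods the 3- and 24-month mice were under urethane when tissue was taken, all were of 1 sex, and the titles of the 10 older mice begin with 3M although their age labels say 12 or 24 months. The labels give no litter, cage or hour of sampling, so the p-values measure the spread between these libraries.

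Growth hormone from the pituitary acts on the growth hormone receptor, which signals through JAK2 and STAT5 and induces Igf1 in many tissues, above all the liver. IGF1 binds the tyrosine kinase receptor IGF1R, whose close relative is the insulin receptor, while IGF2R carries IGF2 to lysosomes and does not signal as a kinase. Most IGF1 in blood and tissue is held by binding proteins, which prolong its life and limit its access to the receptor, and proteases release it again. In the kidney the axis is known for its effects on filtration and growth, and insulin signaling in the proximal tubule restrains gluconeogenesis.

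Each library held between 5.03 and 8.03 Gb of aligned bases, with 5.03 to 6.13 Gb at 3 months and 6.07 to 7.33 Gb at 24 months. Median-ratio scaling factors lay between 0.947 and 1.08. The kidney markers were in place, since 5 proximal tubule markers summed to 1391 to 1917 FPKM and 4 markers of the thick limb and distal convoluted tubule to 1018 to 1340 FPKM over the 15 mice. Within the proximal tubule list Slc5a2, the sodium-glucose cotransporter of the early segment, was lower at 24 months, at 50.6 to 64.2 FPKM against 66.8 to 101 FPKM at 3 months (log2 fold change −0.56 ± 0.13 SE, limma unadjusted p = 0.00138, adjusted p = 0.0703). In the collecting duct list Slc26a4, the pendrin of intercalated cells, was lower likewise, at 7.57 to 10.8 FPKM against 11.8 to 16.9 FPKM (−0.54 ± 0.12, adjusted p = 0.0696). No other marker of these lists had a limma unadjusted p under 0.05. In the proximal tubule list Cubn was at 151 to 171 FPKM at 24 months and at 146 to 149 FPKM at 3 months. Among other cell types, all 3 B lineage markers were higher at 24 than at 3 months at a limma unadjusted p under 0.05, as were 11.4% of all genes. Their means at 3 and 24 months were 0.0830 and 0.521 FPKM (Cd79a), 0.0414 and 0.198 (Ms4a1) and 1.90 and 5.36 (Jchain). Their summed level, most of it Jchain, was 1.17 to 3.31 FPKM at 3 months and 3.92 to 11.8 FPKM at 24 months. In whole kidney, fewer cells of a type and less RNA per cell cannot be told apart.

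By the sum of FPKM over transcripts, Igfbp4 was the most abundant gene of the axis at every age and Igf1 the least abundant. Because FPKM are scaled per length, these sums can be set in order, but the order depends on which transcripts are summed. At 24 months the means were 159 FPKM for Igfbp4, 112 for Igfbp7, 106 for Ghr, 77.4 for Igfbp3, 66.7 for Igfbp5, 46.3 for Igf1r, 26.5 for Igf2r, 14.5 for Insr, 3.40 for Igfbp1 and 1.74 for Igf1. The order of the means was the same at 3 and 12 months. At 3 months every pair of neighbours in this order overlapped in range except Igfbp1 and Igf1, whereas at 24 months Igfbp4 stood above Igfbp7, Igf1r above Igf2r, Igf2r above Insr and Insr above Igfbp1 without overlap. The sums include assembled transcripts. Annotated transcripts carried 5.17% to 24.5% of the Igf1r value, 2.72% to 10.3% of Insr and at most 42.3% of Ghr. They carried all of Igf2r, Igfbp1 and Igf1. With annotated transcripts alone, the 24-month mean of Igf1r was below that of Igf2r. That of Insr was then below those of Igfbp1 and Igf1.

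Between 24 and 3 months, 3 of the 10 genes passed an unadjusted p under 0.05, Igfbp4, Igfbp3 and Igf1, and all 3 were higher at 24 months. Over all 31755 genes tested, 14.9% passed in either direction and 11.4% were higher. After Benjamini-Hochberg adjustment over all genes none of the 10 passed 0.05, the smallest limma adjusted p being 0.0675 for Igfbp4, while 386 genes (1.22%) passed. The median log2 fold change of the 10 genes was 0.28, and that of all genes was 0.02. DESeq2 and edgeR need counts and were not run on these values.

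**Figure D1:**
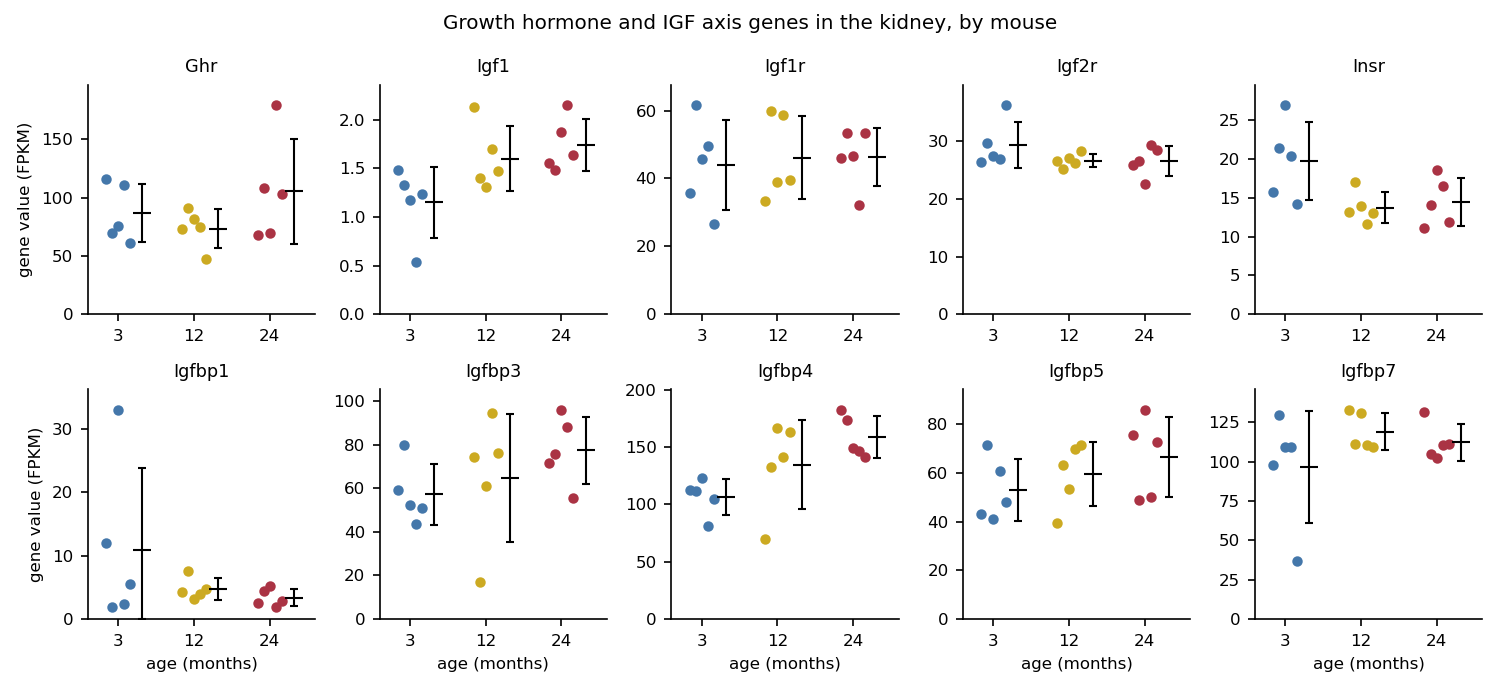
Gene values in FPKM (y axis, from 0) by age in months (x axis) for the 10 genes. Each point is 1 mouse and the black bar gives the mean ± SD of 5 mice, which for Igfbp1 at 3 months runs below the axis. Igfbp4 is higher in all 5 mice at 24 months (142 to 182 FPKM) than in all 5 at 3 months (81.0 to 123 FPKM), and the other 9 genes overlap between these ages.

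Igf1, the ligand, was low in the kidney. It was 1.48, 1.33, 1.17, 0.533 and 1.24 FPKM in the 5 mice at 3 months, 2.13, 1.40, 1.31, 1.69 and 1.47 FPKM at 12 months, and 1.55, 1.48, 1.88, 2.15 and 1.64 FPKM at 24 months. The lowest 24-month mouse and the highest 3-month mouse met at 1.48 FPKM. The log2 fold change at 24 against 3 months was 0.36 ± 0.15 (SE), with limma p-values of 0.0345 unadjusted and 0.285 adjusted, and the exact two-sided permutation p was 0.0159. The unadjusted p rose above 0.05 without 3-month mouse 7 (0.0530) or 8 (0.0584), or without 24-month mouse 33 (0.0685), 34 (0.0805) or 35 (0.0513), and with median-ratio scaling (0.0522). The size depended on the pseudocount, at 0.61 ± 0.25 with a pseudocount of 0.1, and was 1.03 ± 0.31 when FPKM were multiplied by transcript length before summing. The liver is the main source of Igf1 and Igfbp1, and the 3 hepatocyte markers Alb, Apoa1 and Ttr summed to 16.02 to 39.4 FPKM at 3 months and 14.4 to 20.4 FPKM at 24 months, with Alb higher (4.08 against 2.73 FPKM) and Ttr lower (13.8 against 23.7 FPKM) at an unadjusted p under 0.05. At 3 and 24 months none of the 3 was at 0, Apoa1 was at 0 in 1 of the 12-month mice, and their part in the Igf1 values was not tested.

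Ghr is the entry point of growth hormone into the cell. Its value was 116, 69.5, 75.5, 110.4 and 61.1 FPKM at 3 months, 73.0, 91.4, 81.4, 74.6 and 47.1 FPKM at 12 months, and 68.2, 108, 69.4, 179 and 103 FPKM at 24 months. The ages overlapped and the log2 fold change at 24 against 3 months was 0.24 ± 0.29 (SE, limma adjusted p = 0.717). The highest value, in 24-month mouse 34, owed most to 1 assembled transcript of 5310 bases, MSTRG.11984.4, listed at 116 FPKM in that mouse and at 1.70 to 28.2 FPKM in the other 14. With annotated transcripts alone Ghr was lower at 24 months, by −0.34 ± 0.15 (unadjusted p = 0.0481, adjusted p = 0.366). The largest of these have retained introns, ENSMUST00000161180 (mean 13.2 FPKM at 3 and 8.75 at 24 months) and ENSMUST00000162993 (9.76 and 8.86). The annotated coding transcripts ENSMUST00000110697 (1.43 and 1.32 FPKM) and ENSMUST00000161770 (4.55 and 4.13) differed less.

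Igf1r, the signaling receptor for IGF1, gave values that did not separate the ages when the FPKM of all its transcripts were summed. These were 35.8, 61.5, 45.9, 49.4 and 26.7 FPKM at 3 months, 33.5, 60.0, 38.8, 58.7 and 39.6 FPKM at 12 months, and 46.0, 53.5, 46.7, 32.1 and 53.3 FPKM at 24 months, with a log2 fold change of 0.11 ± 0.22 (SE, limma adjusted p = 0.837) at 24 against 3 months. The direction depended on how transcripts were added. It turned to −0.55 ± 0.35 with annotated transcripts only, to −0.60 ± 0.33 when each FPKM was multiplied by the transcript length before summing, and to −0.73 ± 0.30 without transcripts longer than 10 kb, and only the last passed an unadjusted p under 0.05 (0.0345, adjusted p = 0.293). Transcripts longer than 10 kb, up to 117068 bases, made up 80.1% to 96.1% of the Igf1r value. They include the annotated coding transcript ENSMUST00000005671 (11409 bases), and without them only transcripts annotated as retained introns were left.

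Insr, the insulin receptor, had lower means at both older ages, past an unadjusted p of 0.05 at 12 months. It was 15.8, 21.5, 26.9, 20.4 and 14.2 FPKM at 3 months, 13.1, 17.1, 14.0, 11.6 and 13.0 FPKM at 12 months, and 11.1, 14.1, 18.6, 16.5 and 12.0 FPKM at 24 months. The 3 highest 3-month mice lay above every 12-month and 24-month mouse, and the ranges overlapped through 3-month mice 5 and 9. At 12 against 3 months the log2 fold change was −0.47 ± 0.17 (SE, limma unadjusted p = 0.0187, adjusted p = 0.245), and the exact two-sided permutation p was 0.0317. At 24 against 3 months it was −0.42 ± 0.19 (unadjusted p = 0.0538, adjusted p = 0.347). Without 3-month mouse 5 or 9 or 24-month mouse 33 the unadjusted p was under 0.05 (0.0402, 0.0206 and 0.0266). These comparisons share the 3-month mice. The assembled transcript MSTRG.34627.5 of 6395 bases was 4.50, 9.09, 17.2, 9.38 and 4.61 FPKM at 3 months, highest in the 3 mice highest in Insr. Its means were 8.96, 3.90 and 4.34 FPKM at 3, 12 and 24 months, against 19.8, 13.7 and 14.5 FPKM for the gene. Annotated transcripts carried only 2.72% to 10.3% of the Insr value. With them alone the Insr difference was −0.10 ± 0.18 (limma unadjusted p = 0.575) at 12 months and −0.06 ± 0.17 at 24 months. Without transcripts over 10 kb it was −0.85 ± 0.34 and −0.71 ± 0.32, but this left only MSTRG.34627.5 and the annotated transcripts.

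Igf2r, the scavenger of IGF2, varied least between mice of an age. It was 26.5, 29.7, 27.5, 27.0 and 36.2 FPKM at 3 months, 26.5, 25.1, 27.1, 26.2 and 28.3 FPKM at 12 months, and 25.9, 26.5, 22.5, 29.3 and 28.4 FPKM at 24 months. Its log2 fold change at 24 against 3 months was −0.14 ± 0.10 (SE, limma adjusted p = 0.584).

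**Figure D2:**
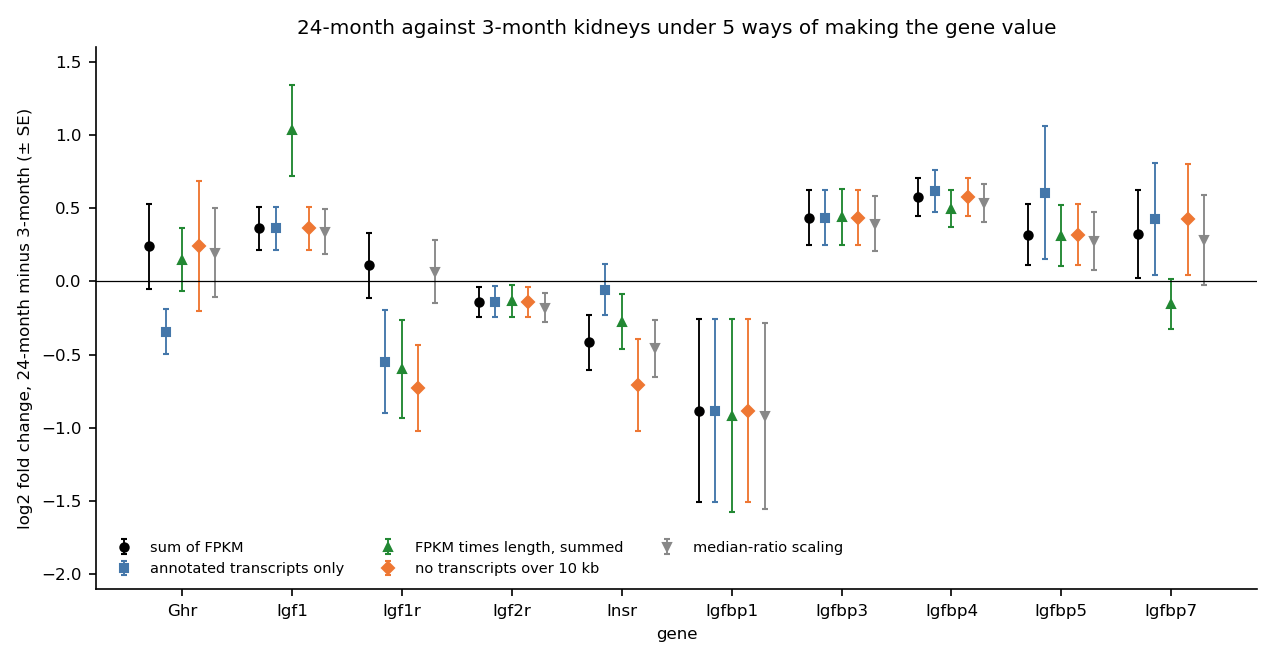
Log2 fold change at 24 against 3 months (y axis, ± SE of the limma fit over 10 mice) for the 10 genes (x axis) under 5 ways of making the gene value. Igfbp4 lies between 0.50 and 0.62 under these and the other alternatives, and Igf1r runs from 0.11 for the sum of FPKM to −0.73 without transcripts over 10 kb. The latter leaves only Igf1r transcripts annotated as retained introns.

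A separate table of circular RNAs gave a second view of the receptors. Circular RNAs arise when the end of an exon is joined backwards to the start of an earlier one, and the table lists 11929 entries, 20 of them in 5 genes of the axis: 7 in Ghr, 6 in Igf1r, 4 in Insr, 2 in Igfbp4 and 1 in Igf2r. All ends of the exonic entries fall on annotated exon ends of GRCm38. Their estimated counts summed to 6974494 to 9889971 per mouse, or 35.6% to 50.2% of the read pairs that the aligned bases correspond to at 300 bases a pair, and 6 Ghr entries nested in 1 region held a like 1937 to 2160 counts per kb of exon. Circular RNA and linear RNA of the same exons therefore cannot be told apart in these counts, and overlapping entries are not independent. The joints at which the entries turn back are shown for those the results turn on, as 30 bases read 5′ to 3′, with the end of the last exon in lower case and the start of the leading exon in capitals (GENCODE M21 transcripts, GRCm38).
Igf1r exons 3 to 20 (circRNA10033, chr7:68164993-68218536, plus strand): ctgccctgatatgctTGTGCCCAAGTGTGT
Igf1r exons 3 to 13 (circRNA10545, chr7:68164993-68195749, plus strand): atgtccccgccaaaaTGTGCCCAAGTGTGT
Igf1r exons 3 to 5 (circRNA2681, chr7:68164993-68173375, plus strand): ggagcagctggaaggTGTGCCCAAGTGTGT
Igf1r exons 6 to 20 (circRNA9498, chr7:68183344-68218536, plus strand): ctgccctgatatgctGAACTACTCCTTCTA
Igf1r exon 2 (circRNA578, chr7:68003810-68004355, plus strand): atcgctgccagaaaaTCTGTGGGCCCGGCA
Insr exons 5 to 8 (circRNA1250, chr8:3192546-3203034, minus strand): aaacagatgccactaACAACCTGGCAGCTG
Insr exons 5 to 7 (circRNA9759, chr8:3194795-3203034, minus strand): gttctacaaagaggcACAACCTGGCAGCTG
Ghr exons 2 to 8 (circRNA1598, chr15:3327974-3458008, minus strand): aagcatgtgaagaagGTCTCAGGTATGGAT
Exon numbers are those of ENSMUST00000005671 for Igf1r, ENSMUST00000091291 for Insr and ENSMUST00000069451 for Ghr.

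Among these entries, 6 of the 20 fell between 3 and 24 months at an edgeR adjusted p under 0.05, 4 in Igf1r and 2 in Insr, and none rose. Of all 11924 entries tested, 6.61% fell and 6.66% rose. The median log2 fold change of the 20 was −0.31 and that of all entries 0.00083. DESeq2 called 12 of the 20, all lower, as were 8.31% of all entries with that tool, and leaving out 3-month mouse 6 gave 13, all lower, against 6.61% of all entries. These fold changes come from counts scaled by TMM, whereas the CPM printed below are scaled to library totals. With library totals in place of TMM the 6 entries fell too, but the median of all entries moved to 0.08 on the log2 scale, and of the entries called 501 of 1855 were lower instead of 788 of 1582 (4.2% of all entries tested).

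The entry over Igf1r exons 3 to 20 held 556, 678, 523, 588 and 522 CPM (counts scaled to the library total of the circle table) at 3 months, 521, 471, 460.2, 539.7 and 579.5 at 12 months, and 439, 469.8, 338, 317 and 434 at 24 months. Every 24-month mouse lay below every 3-month mouse, as did 2.86% of all entries. It fell by 0.60 on the log2 scale (edgeR adjusted p = 0.00843). The entries over exons 3 to 13, 3 to 5 and 6 to 20, which share its exons, fell by 0.59 (adjusted p = 0.00876), 0.51 (adjusted p = 0.0178) and 0.51 (adjusted p = 0.0142), and the entry over exons 3 to 5 missed the threshold without 24-month mouse 33 (adjusted p = 0.0532). The sixth entry, over exons 4 and 5 (circRNA8367), lies within exons 3 to 20 and did not pass. It held 19.7, 25.0, 20.8, 25.7 and 21.4 CPM at 3 months, a mean of 29.3 at 12 months, and 33.7, 18.99, 20.9, 19.1 and 21.8 at 24 months (log2 fold change −0.05, adjusted p = 0.862). Exon 2 alone, the exon just upstream, held 88.5, 103, 84.0, 91.5 and 99.0 CPM at 3 months, 109, 84.9, 115, 107 and 129 at 12 months, and 111, 85.2, 90.03, 84.0 and 110.2 at 24 months, with a log2 fold change of −0.03 (adjusted p = 0.853) at 24 and 0.19 (adjusted p = 0.294) at 12 against 3 months. The ratio of exons 3 to 20 over exon 2 within a mouse does not depend on scaling between libraries, and it is given as a description, chosen after the values were seen. It was 6.16 ± 0.513 (SD) at 3 months, 4.76 ± 0.579 at 12 months and 4.19 ± 0.747 at 24 months. At 12 months both parts of the ratio had moved, with means of 574 and 514 CPM for exons 3 to 20 and of 93.2 and 109 CPM for exon 2 at 3 and 12 months. Of the older mice, 12-month mouse 18 at 5.54 and 24-month mouse 32 at 5.51 reached the 3-month range of 5.28 to 6.59.

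In Insr, the entry over exons 5 to 8 held 82.2, 113, 98.7, 118 and 109 CPM at 3 months, 100.2, 98.8, 88.8, 96.0 and 94.2 at 12 months, and 82.2, 84.9, 84.7, 85.0 and 78.3 at 24 months. Of the 3-month mice only mouse 5 came down to the 24-month range. It fell by 0.40 on the log2 scale (edgeR adjusted p = 0.0147), and the entry over exons 5 to 7 fell by 0.49 (adjusted p = 0.00822). The entries over exons 12 to 20 and exon 2 had log2 fold changes of −0.27 (adjusted p = 0.0634) and −0.23 (adjusted p = 0.229). The ratio of exons 5 to 8 over exon 2 was 1.93 ± 0.170 (SD) at 3 months, 1.86 ± 0.163 at 12 months and 1.73 ± 0.240 at 24 months.

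All 7 Ghr entries were lower at 24 months, with log2 fold changes from −0.28 to −0.47 and edgeR adjusted p from 0.0575 to 0.0869, so that none passed. The entry of the axis with the most counts was Ghr exons 2 to 8, with 4362, 2575, 3467, 3803 and 2699 CPM at 3 months and 2197, 2503, 2511, 2766 and 2988 at 24 months (log2 fold change −0.47, edgeR adjusted p = 0.0603). It held 30879 counts per kb of exon, against 1937 to 2160 in the 6 entries that lie within or overlap it. Igf2r exons 35 and 36 (circRNA8890) had a log2 fold change of −0.27 (adjusted p = 0.177). The 2 Igfbp4 entries are intronic, and the larger, ciRNA436, held 43.7 ± 5.35 (SD) CPM at 3 months and 42.5 ± 7.86 at 24 months (adjusted p = 0.601). No entry of the axis passed at 12 against 3 months with edgeR or DESeq2, while 6.63% of all entries did with edgeR, and 10 of 20 had an unadjusted p under 0.05, as 23.7% of all entries did. At 24 against 12 months 1 entry fell, Igf1r exons 3 to 5 (log2 fold change −0.54, adjusted p = 0.0354, against 0.738% of all entries called), and the call was lost without 12-month mouse 17 (0.0929), 18 (0.0507), 19 (0.0876) or 20 (0.0693), or 24-month mouse 33 (0.117) or 34 (0.0944), and with library totals in place of TMM (0.0513).

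**Figure D3:**
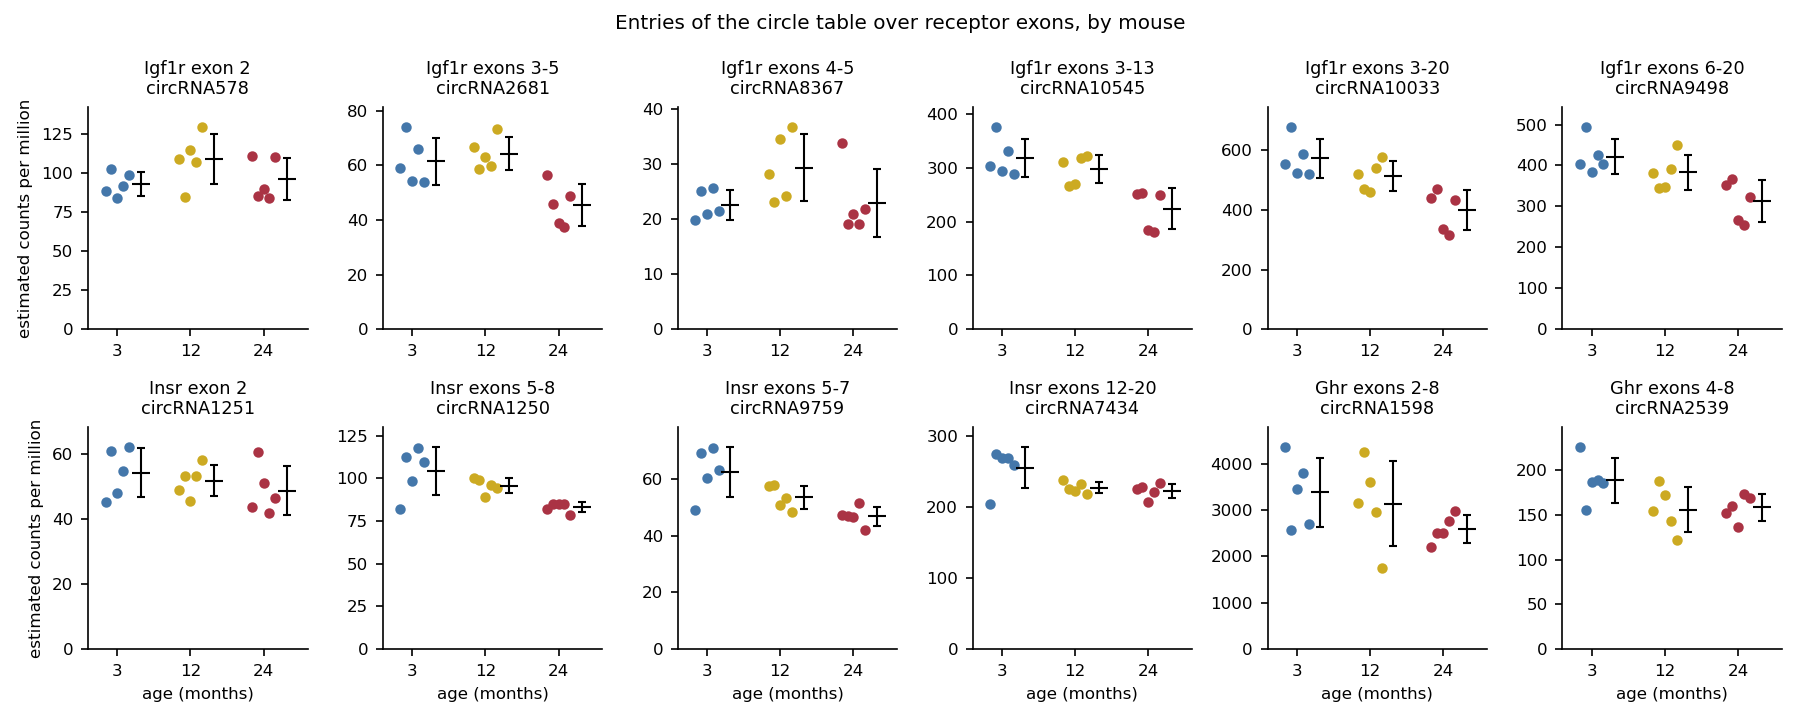
Estimated counts of the circle table as CPM (y axis, from 0) by age in months (x axis) for 12 entries over exons of Igf1r, Insr and Ghr. Each point is 1 mouse and the bar gives the mean ± SD of 5 mice. Igf1r exons 3 to 20 go from 522 to 678 at 3 months to 317 to 469.8 at 24 months, while Igf1r exon 2 lies at 84.0 to 111 at these ages and at 84.9 to 129 at 12 months.

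Of the binding proteins, Igfbp4, which mostly holds IGFs away from their receptor and is cut by the protease PAPP-A, showed the clearest difference. It was 113, 111, 123, 81.0 and 104 FPKM at 3 months, 70.0, 133, 167, 142 and 163 FPKM at 12 months, and 182, 174, 149, 146 and 142 FPKM at 24 months. All 24-month mice lay above all 3-month mice, as in 3.82% of genes, and of the 12-month mice only mouse 17 fell below the 3-month range. The mean was 48.9% higher at 24 than at 3 months, with a log2 fold change of 0.58 ± 0.13 (SE, limma unadjusted p = 0.00128, adjusted p = 0.0675), and the exact two-sided permutation p was 0.00794, the smallest that 5 against 5 mice allow. At 12 against 3 months it was 0.29 ± 0.23 (adjusted p = 0.628). The unadjusted p stayed under 0.05 in every alternative and with each mouse left out, where the log2 fold change ran from 0.48 to 0.63. Igfbp4 lies at chr11:99041244-99054392 on the plus strand of GRCm38. Its 250 bases before the RefSeq start site (chr11:99040994-99041243) hold TATAAA, shown in capitals 28 bases before the start, a motif that 12.4% of 32851 such windows hold on either strand, that of Ghr included.
Igfbp4: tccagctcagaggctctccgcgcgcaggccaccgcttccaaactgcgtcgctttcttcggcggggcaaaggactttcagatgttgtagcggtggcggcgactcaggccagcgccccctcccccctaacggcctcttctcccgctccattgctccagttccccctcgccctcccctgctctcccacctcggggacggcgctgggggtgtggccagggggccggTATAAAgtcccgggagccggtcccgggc

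Igfbp3, which forms most of the large IGF complex in blood, was 59.1, 80.0, 52.3, 43.6 and 50.9 FPKM at 3 months, 74.6, 16.99, 61.1, 94.6 and 76.4 FPKM at 12 months, and 71.4, 75.8, 95.8, 88.2 and 55.6 FPKM at 24 months. The ages overlapped, and 12-month mouse 18 was lower than any other mouse. At 24 against 3 months the log2 fold change was 0.44 ± 0.19 (SE, limma unadjusted p = 0.0416, adjusted p = 0.308), and the exact two-sided permutation p was 0.0714. The unadjusted p rose above 0.05 when any 1 mouse other than 3-month mouse 6 or 24-month mouse 35 was left out (up to 0.0975), with median-ratio scaling (0.0636) and with all 15 mice in 1 fit (0.252).

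Igfbp5 and Igfbp7 did not pass. Igfbp5, a matrix-bound binding protein, was 43.3, 71.7, 41.2, 60.7 and 48.3 FPKM at 3 months and 75.8, 48.8, 85.8, 50.0 and 72.9 FPKM at 24 months (log2 fold change 0.32 ± 0.21 SE, limma adjusted p = 0.525). Igfbp7, a low-affinity IGF binder secreted by vessels and injured tubules, was 97.5, 129, 109, 109 and 36.7 FPKM at 3 months and 132, 105, 102, 111 and 111 FPKM at 24 months (log2 fold change 0.32 ± 0.30, adjusted p = 0.662). Its difference rested on 3-month mouse 9, without which it was 0.01, and it turned to −0.16 ± 0.17 when FPKM were multiplied by length. Stromal and mesangial cells are among the sources of Igfbp4 and Igfbp5, and of the 4 stromal markers Pdgfrb was higher at 24 months (12.8 ± 2.40 against 9.11 ± 1.67 FPKM, SD) at an unadjusted p under 0.05. Of the 5 endothelial markers 1 was higher and none lower at this threshold. The summed stromal markers were 29.7 to 40.2 FPKM at 3 months and 37.4 to 52.1 FPKM at 24 months with none at 0, and their part in the Igfbp4 difference was not tested.

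Igfbp1, an acute binding protein that insulin represses and FOXO1 induces, was the most variable gene of the axis at 3 months. It was 12.0, 1.90, 32.995, 2.43 and 5.61 FPKM at 3 months, 4.26, 7.67, 3.16, 4.002 and 4.83 FPKM at 12 months, and 2.50, 4.501, 5.18, 1.93 and 2.91 FPKM at 24 months. Its coefficient of variation was 118% at 3 months, 36.0% at 12 months and 40.4% at 24 months, and 3-month mice 5 and 7 stood above all 10 older mice while mouse 6 had the lowest value of all 15. The log2 fold change at 24 against 3 months was −0.88 ± 0.63 (SE, limma adjusted p = 0.569). The 250 bases before its RefSeq start site (chr11:7197537-7197786, plus strand, GRCm38) are shown because they hold CAAAACA, the core of the known insulin response element, in capitals 108 bases before the start. This motif is in 5.56% of all such windows on either strand, G6pc and Irs2 included, and no other gene of the axis with a window holds it. Windows were found for 9 of the 10 genes. None of them holds GTAAACA, the forkhead core (3.17% of windows), or TTCNNNGAA, the STAT core (7.02%).
Igfbp1: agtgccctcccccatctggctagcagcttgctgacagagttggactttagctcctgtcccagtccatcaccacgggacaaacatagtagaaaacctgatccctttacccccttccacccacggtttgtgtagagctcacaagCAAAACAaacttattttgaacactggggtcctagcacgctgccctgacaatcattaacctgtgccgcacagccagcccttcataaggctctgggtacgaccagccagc

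At the level of transcripts, 11 of 62 transcripts of the axis passed a limma unadjusted p under 0.05 at 24 against 3 months, 5 higher and 6 lower, against 7.9% of all 124719 transcripts, and none passed when adjusted (smallest adjusted p 0.314), as 0.0192% of all did. The 5 that were higher belong to Igfbp4 and Igf1, and the 6 that were lower to Igf1r, Ghr and Insr. The main coding transcript of Igfbp4, ENSMUST00000017637, was 88.7, 85.5, 91.3, 56.6 and 77.6 FPKM at 3 months and 132, 125, 106, 103 and 107 FPKM at 24 months, without overlap, as in 2.56% of transcripts with a mean of at least 1 FPKM (log2 fold change 0.53 ± 0.17 SE). The noncoding Igfbp4 transcript ENSMUST00000123946 was 6.64 ± 2.42 (SD) FPKM at 3 months and 14.8 ± 4.69 FPKM at 24 months, also without overlap (1.05 ± 0.26 SE). It was 1 of 2 that also had a log2 fold change above 1 in size on log2(FPKM + 1), as 0.795% of all transcripts did. The other was the Igf1r transcript of 117068 bases, MSTRG.33186.4, listed at 10.4, 10.2, 0, 7.44 and 5.62 FPKM at 3 months, at 2.24, 3.01, 7.55, 0 and 4.97 FPKM at 12 months, and at 3.17 FPKM in 1 and at 0 in 4 of the 24-month mice. The study's own limit was a fold change above 2, without the added 1 FPKM stated. In mean FPKM ENSMUST00000130530, ENSMUST00000208731, ENSMUST00000095360 and MSTRG.34627.5, all with a limma unadjusted p under 0.05, also differed by more than that. Because the authors' assembler divides reads among overlapping transcripts, a transcript at 0 need not be absent.

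The 2 other Igfbp4 transcripts that were higher, ENSMUST00000130530 and the assembled MSTRG.6902.2, went from 1.85 to 4.45 FPKM and from 16.5 to 21.1 FPKM in the mean, with limma unadjusted p of 0.00901 and 0.0404. Of the lower ones, the retained-intron Igf1r transcript ENSMUST00000208348 was 2.15, 2.41, 1.93, 2.51 and 1.66 FPKM at 3 months and 1.52, 1.47, 1.12, 0.593 and 0.862 FPKM at 24 months (log2 fold change −0.58 ± 0.16 SE, unadjusted p = 0.00432, adjusted p = 0.368). These ranges did not overlap, but the part of all transcripts that were lower without overlap is not given here. Another with a retained intron, ENSMUST00000208731, went from 1.63 to 0.670 FPKM (unadjusted p = 0.0144), and the assembled MSTRG.33186.9 from 6.39 to 3.87 FPKM (unadjusted p = 0.00780). In Ghr the retained-intron ENSMUST00000161180 went from 13.2 to 8.75 FPKM (unadjusted p = 0.0180), and in Insr the assembled MSTRG.34627.5 from 8.96 to 4.34 FPKM (unadjusted p = 0.0426).

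The leading coding transcripts of the other binding proteins and of Igf2r did not pass. Their log2 fold changes were 0.43 ± 0.21 for Igfbp3 (ENSMUST00000020702), 0.63 ± 0.47 for Igfbp5 (ENSMUST00000027377), −0.88 ± 0.62 for Igfbp1 (ENSMUST00000020704), 0.59 ± 0.47 for Igfbp7 (ENSMUST00000046746) and −0.13 ± 0.13 for Igf2r (ENSMUST00000024599). Of the remaining Ghr transcripts with a mean of at least 1 FPKM, MSTRG.11984.4 was at 0.47 ± 1.05. The others (ENSMUST00000110697, ENSMUST00000161770, ENSMUST00000162993, MSTRG.11984.1, MSTRG.11984.6 and MSTRG.11984.15) lay between −0.25 and 0.29, and those of Insr (MSTRG.34627.2, MSTRG.34627.7 and MSTRG.34627.10) between −0.18 and 0.0031. In Igf1r they lay further apart, from −0.34 for ENSMUST00000207487 and −0.22 for MSTRG.33186.2 to 0.28 for ENSMUST00000005671, 0.79 for MSTRG.33186.8 and 0.93 for MSTRG.33186.6. The lesser transcripts of the binding proteins (MSTRG.922.1 and ENSMUST00000137339 of Igfbp5, ENSMUST00000135887 of Igfbp3, ENSMUST00000177105 of Igfbp4, ENSMUST00000163898 and MSTRG.27797.3 of Igfbp7) lay between −0.36 and 0.28.

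Igf1 is spliced into several forms that share the mature peptide and differ in their ends. The longest, ENSMUST00000095360 of 7052 bases, was listed at 1.40, 0.374, 0.543, 0.298 and 0 FPKM at 3 months, 1.40, 1.05, 1.06, 1.40 and 1.11 FPKM at 12 months, and 1.20, 0.980, 1.46, 1.42 and 1.22 FPKM at 24 months. Apart from 3-month mouse 5, all 3-month mice lay below every older mouse. Its log2 fold change was 0.62 ± 0.22 (SE, limma unadjusted p = 0.0162, adjusted p = 0.507) at 24 months and 0.59 ± 0.21 (unadjusted p = 0.0207) at 12 months, against the same 3-month mice. It made up a mean 45.0% of Igf1 at 3 months, 76.0% at 12 months and 72.3% at 24 months, and the differences in share had unadjusted p of 0.0587 and 0.0885. The form ENSMUST00000105300 of 1673 bases had mean shares of 31.8%, 5.96% and 9.47%.

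Of the shares of transcripts within their gene, 3 of 29 tested passed a limma unadjusted p under 0.05 at 24 against 3 months, against 7.26% of all shares, and none did when adjusted (smallest adjusted p 0.594, with 0.0149% of all passing) or at 12 against 3 months (6.84% of all). The retained-intron Ghr transcript ENSMUST00000161180 took 15.8%, 15.5%, 16.5%, 13.0% and 16.2% of Ghr at 3 months and 9.62%, 7.30%, 12.1%, 6.21% and 9.505% at 24 months (−6.49 ± 2.05 points SE, unadjusted p = 0.0104, adjusted p = 0.594). The assembled Igf1r transcripts MSTRG.33186.4 and MSTRG.33186.9 had lower shares by −15.0 ± 4.82 and −6.19 ± 2.10 points. In Igfbp3, Igfbp4, Igf2r, Igfbp1 and Igfbp7, 1 annotated transcript led in all 15 mice, whereas 4 different transcripts led in Ghr and in Igf1r, which the plot of transcripts by mouse shows.

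**Figure D4:**
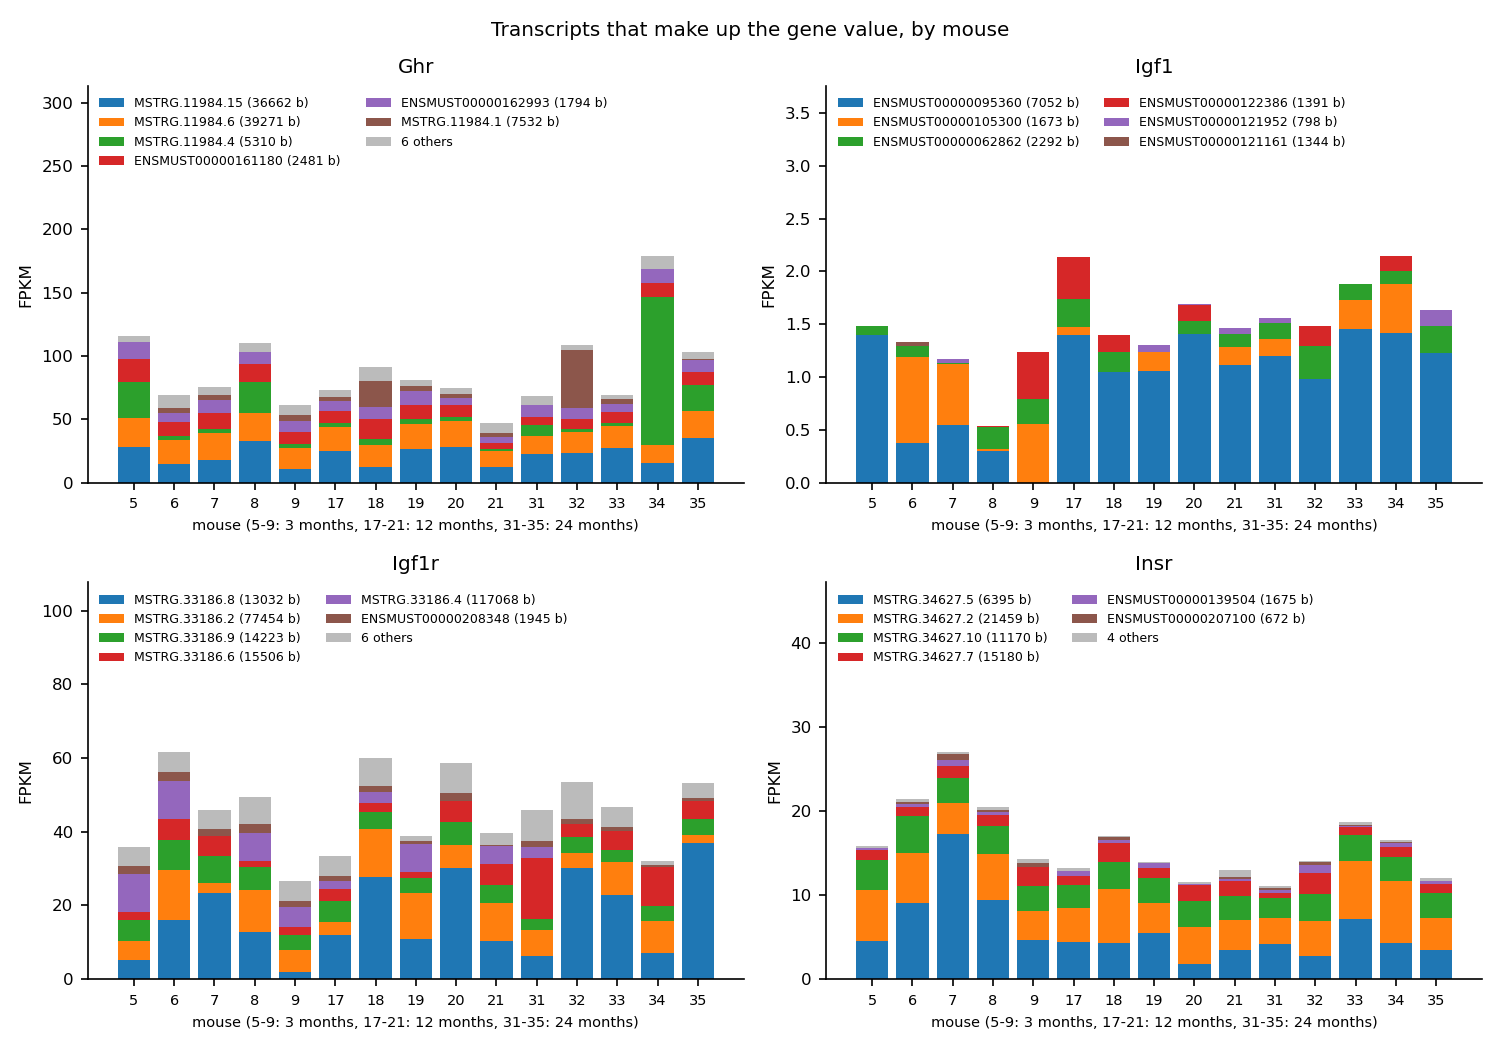
FPKM (y axis, from 0) stacked by transcript for each mouse (x axis, by mouse number) in Ghr, Igf1, Igf1r and Insr. The 6 most abundant transcripts have colours, with their length in bases (b), and the rest are grey. The tall bar of Ghr in 24-month mouse 34 is 1 assembled transcript at 116 FPKM.

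At 12 against 3 months Insr was the 1 gene of the axis with a limma unadjusted p under 0.05, against 14.3% of 31637 genes, and at 24 against 12 months none passed, against 6.43% of 32282 genes. None passed when adjusted, as 0.25% and 0.0031% of all genes did. The smallest adjusted p of the axis was 0.245 and 0.820. Between 24 and 12 months Ghr (0.46 ± 0.28 SE), Igfbp3 (0.42 ± 0.41) and Igfbp1 (−0.40 ± 0.25) had the largest log2 fold changes, and 4 of the 10 genes (Igf1, Insr, Igf1r and Igf2r) had differences of at most 0.08 in size.

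Other genes of the pathway were examined in 6 lists of 54 genes, of which 51 could be tested. At 24 against 3 months 4 were higher and 7 lower at a limma unadjusted p under 0.05, against 11.4% higher and 3.47% lower of all genes, and none passed when adjusted. The median log2 fold change of the 51 was −0.02. Ins1, Ins2 and Igfbpl1 had no value above 0. Gh had a mean of 0.0125 FPKM at 3 months and was listed at 0 in every 24-month mouse, and Igf2 had a mean of 0.428 FPKM at 3 months.

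The list of FOXO factors and FOXO- or insulin-responsive genes had 3 of 9 genes lower and none higher. G6pc, the last enzyme of gluconeogenesis, was 209.8, 275, 331, 204 and 236 FPKM at 3 months, 144, 116, 101, 146 and 93.0 FPKM at 12 months, and 143, 175, 141, 159.9 and 96.5 FPKM at 24 months. Every older mouse lay below every 3-month mouse, as in 0.91% of genes at 24 months and 0.667% at 12 months, and the log2 fold change was −0.81 ± 0.19 (SE, limma adjusted p = 0.0778) at 24 months and −1.06 ± 0.18 (adjusted p = 0.0538) at 12 months. Slc5a2, which like G6pc belongs to the proximal tubule, was 86.6 FPKM at 3 months, 73.1 at 12 months and 58.1 at 24 months in the mean. The other markers of that list had means at these ages of 148, 159 and 162 FPKM (Cubn), 868, 986 and 823 (Slc34a1), 76.2, 83.9 and 76.3 (Slc22a6), and 471, 408 and 428 (Lrp2). The part of the tubule segments in the G6pc values was not tested. Pdk4, which turns cells from glucose to fat oxidation, was 53.0, 32.8, 19.1, 33.8 and 22.3 FPKM at 3 months and 16.9, 13.3, 14.4, 17.4 and 5.44 FPKM at 24 months, again without overlap (−1.20 ± 0.34, adjusted p = 0.133). Pck1, the other gluconeogenic enzyme of the list, had a difference of −0.15 ± 0.30 (adjusted p = 0.829). In the list of insulin and IGF receptor signal, 1 of 23 genes was higher, Pik3r1 (0.31 ± 0.10), and 3 were lower, among them Grb10 (−0.30 ± 0.12) and the adaptor Irs2, which was 41.0, 9.83, 26.6, 23.6 and 21.7 FPKM at 3 months and 7.67, 19.2, 7.32, 1.58 and 10.3 FPKM at 24 months (−1.47 ± 0.53, adjusted p = 0.227).

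In the growth hormone signal, 2 of 8 genes were higher and none lower at the unadjusted threshold. Stat5b, which carries the growth hormone signal to the nucleus, was 4.03 ± 0.841 FPKM at 3 months and 5.74 ± 0.992 FPKM at 24 months (SD, log2 fold change 0.43 ± 0.14 SE, limma adjusted p = 0.190), and Socs1 was at most 0.233 FPKM in every mouse. The STAT5 targets Cish and Socs2 had differences of −0.02 ± 0.33 and −0.05 ± 0.47. Of the 5 IGFBP proteases and their inhibitors, Htra1, a secreted protease that cuts IGF binding proteins, was lower, at 30.2, 34.9, 25.1, 34.7 and 27.8 FPKM at 3 months and 25.5, 18.6, 18.3, 18.4 and 20.6 FPKM at 24 months (−0.57 ± 0.12, adjusted p = 0.0591). Pappa, which encodes PAPP-A, had a difference of −0.42 ± 0.30 (adjusted p = 0.580). Of the 3 further binding proteins and partners tested, Igfbp6 passed, at a low 0.0991 against 0.317 FPKM.

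**Figure D5:**
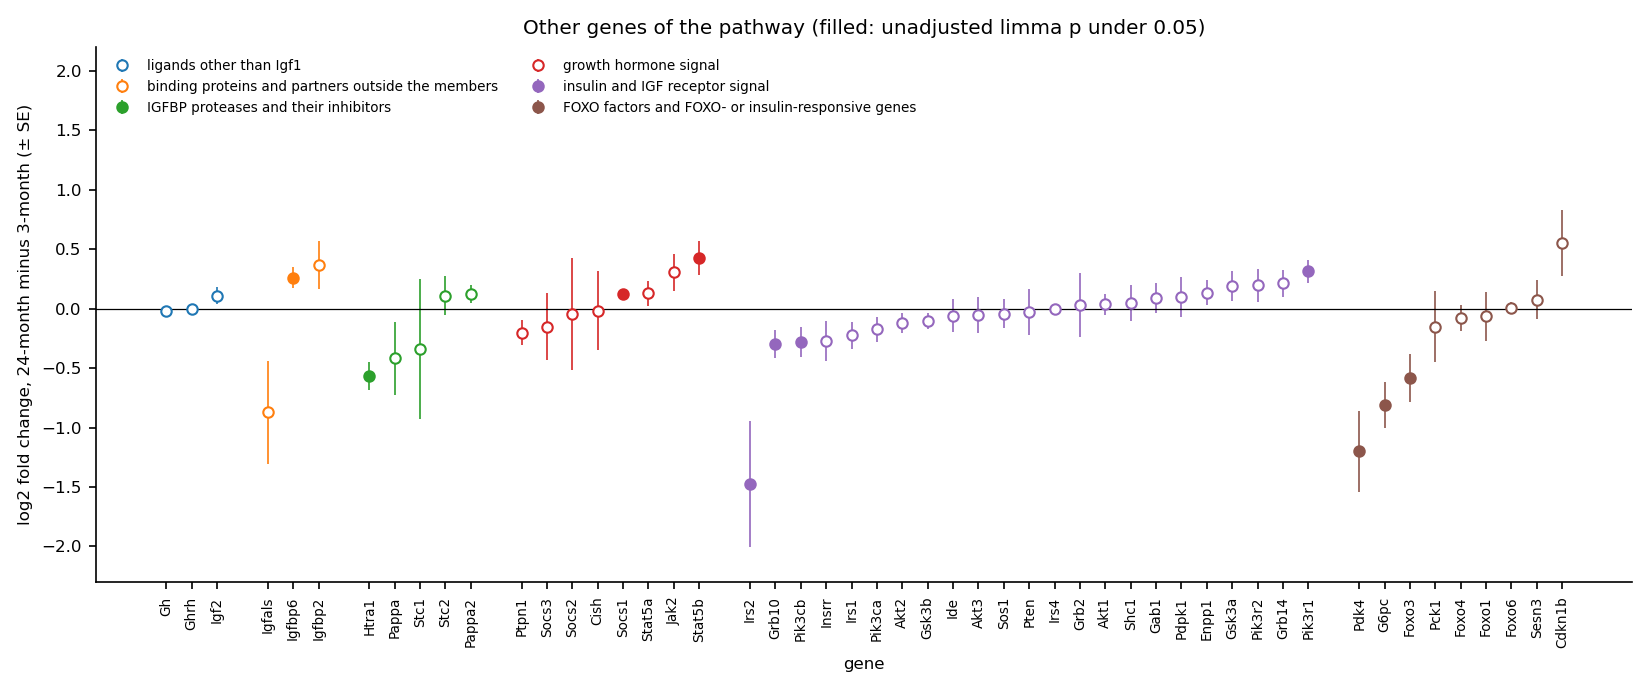
Log2 fold change at 24 against 3 months (y axis, ± SE of the limma fit over 10 mice) for 51 other genes of the pathway (x axis), coloured by list. Filled points have a limma unadjusted p under 0.05, which 4 higher and 7 lower genes do, with Irs2 at −1.47 and Pdk4 at −1.20 the lowest.

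Genes of the circadian clock, which mark the hour of sampling, differed with age beside these insulin-responsive genes. Of 8, 5 were higher and 1 lower at 24 months at a limma unadjusted p under 0.05, against 11.4% higher and 3.47% lower of all genes. After adjustment 3 of the 8 passed, as 1.22% of all genes did. Dbp was 0.0624 to 2.14 FPKM at 3 months, 4.89 to 12.7 FPKM at 12 months and 6.44 to 23.7 FPKM at 24 months, and Arntl was 8.30 to 16.7, 2.66 to 6.16 and 0.510 to 3.72 FPKM. The summed clock genes were 55.3 to 93.7 FPKM at 3 months and 71.7 to 139.9 FPKM at 24 months with none at 0. The study's methods place the collection of young and old mice on 1 day without an hour. The part of the clock genes in the values of G6pc, Pdk4, Irs2, Igfbp1 and Insr was not tested.

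The genes most like 9 of the members in pattern over the 15 mice were found by Pearson correlation of log2(FPKM + 1) among 13446 genes with a mean of at least 1 FPKM. These were Adamts6 (0.86) and Desi2 (0.83) for Ghr, Pdp2 (0.85) and Gm9754 (0.83) for Igf1r, Dhrs11 (0.84) and Slc44a3 (0.83) for Igf2r, and Gm12971 (0.88) and Eps8l1 (0.85) for Insr. For the binding proteins they were Snx31 (0.88) and Gm26527 (0.83) for Igfbp1, Ifitm2 (0.90) and RP23-265F16.6 (0.87) for Igfbp3, Vamp2 (0.87) and Lynx1 (0.86) for Igfbp4, Ccm2l and Kctd9 (both 0.89) for Igfbp5, and Gm1821 (0.95) and Gm36936 (0.93) for Igfbp7. The values share libraries and scaling, and no member was among the 2 most like of another.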

How the data were processed

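Kidney RNA of 15 mice was sequenced, 1 library per mouse. The labels describe ribosomal RNA removal and a stranded kit, whereas the paper describes oligo(dT) purification. Per the paper, reads were trimmed with Cutadapt, mapped (Bowtie2, HISAT2) to the GRCm38 assembly using the Ensembl 88 annotation, and assembled and quantified with StringTie, and the submitters' processing notes also name TopHat2. The authors deposited FPKM and coverage per transcript, and for circular RNAs estimated counts, most of them not whole, whose making is not given in the sources used here. FPKM divide by each library's own total, and reads of overlapping transcripts are divided by the assembler. Counts of reads per gene were not used here, so no counting interval is given for single genes and the spread between 5 mice sets the precision.

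Gene values are sums of FPKM over transcripts of class =, c, j or o. They were compared on log2(FPKM + 1) with limma 3.58.1 (lmFit, eBayes with trend) in R 4.3.3 over every gene with a value above 0 in 1 or more of the 10 mice, with Benjamini-Hochberg adjustment over all of them, and fold changes of low genes are understated by the pseudocount. Transcripts were fitted likewise. Shares of a gene's transcripts (mean share 5% to 95%, gene mean at least 1 FPKM) were fitted without trend. Estimated counts were rounded, printed as CPM of library totals, and tested with the edgeR 4.0.16 quasi-likelihood test (TMM, above 0 in at least 5 of 10 mice) and with DESeq2 1.42.0 as the alternative. Exact permutation tests used all 252 assignments of 10 mice. The limma and edgeR fits were tested on simulated data, with plain normal noise in the case of shares, and DESeq2 was not. Python 3.11.15 was used for the rest.

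The members, gene lists and tests were chosen with earlier results of these data known. Named were all members, and their transcripts with a mean of at least 1 FPKM or past both the unadjusted p and the fold limit on log2(FPKM + 1). Of the circle entries, those that passed and the entry with the most counts in each gene were named. Of each list the 2 genes with the smallest unadjusted p in each direction were named. Pck1, Cish, Socs2, Pappa, Gh and Igf2 were named outside this rule, after their values were seen, as were the ratios between circle entries. Every column of sample values was matched to a mouse. Gene positions are from GENCODE M21 and promoters from RefSeq (GRCm38.p6). Protein sequences were not used here. The genes most like Igf1 in pattern are not reported here.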

Additional observations from a re-analysis of the deposited data

How the results depend on the processing

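Alternatives were a pseudocount of 0.1, a mean of at least 1 FPKM, TPM scaling, median-ratio scaling, all 15 mice in 1 fit, annotated transcripts only and a robust prior, and, chosen after seeing the data, FPKM multiplied by transcript length, removal of transcripts over 10 kb and, for circles, library totals without TMM. No paired analysis was possible because the ages share no replicate numbers.

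At 24 against 3 months, Ghr reversed to −0.34 with annotated transcripts only, the largest of which have retained introns. Igf1r reversed to −0.55 with annotated transcripts only, to −0.60 with length-multiplied values, to −0.73 without transcripts over 10 kb and to −0.051 without 3-month mouse 9, and ran from −0.051 to 0.24 with each mouse left out. For Igf1r, removal of transcripts over 10 kb left only transcripts annotated as retained introns. Igfbp7 reversed to −0.16 with length-multiplied values. Of the 10 genes, 3 passed an unadjusted p under 0.05 at 24 against 3 months, 5 without transcripts over 10 kb, and 1 to 3 with a mouse left out (1 without 3-month mouse 7 or 8 or 24-month mouse 34). At 12 against 3 months 1 passed, 2 with median-ratio scaling, length-multiplied values or removal of transcripts over 10 kb, 0 with annotated transcripts only, and 1 to 2 with a mouse left out (2 without 12-month mouse 17 or 18). Transcripts at 24 against 12 months went from 4 to 2 with all 15 mice in 1 fit and 0 to 6 with a mouse left out (0 without 12-month mouse 17). Shares at 24 against 3 months went from 3 to 1 at mean shares of 10% to 90%, and ran from 3 to 7 with a mouse left out (7 without 3-month mouse 5). Shares at 12 against 3 months went from 0 to 3 with all 15 mice in 1 fit, and ran from 0 to 3 (3 without 3-month mouse 5). Shares at 24 against 12 months went from 0 to 1 on the arcsine scale, and ran from 0 to 1. Circle entries called at 24 against 3 months went from 6 to 12 with DESeq2, and ran from 5 to 13 (13 without 3-month mouse 6). Of all entries, 13.3% were called with edgeR, 15.8% with DESeq2 and 13.1% without 3-month mouse 6. At 12 against 3 months the axis entries called ran from 0 to 2 (2 without 3-month mouse 5, against 6.78% of all entries). At 24 against 12 months they went from 1 to 4 with DESeq2 and to 0 with library totals without TMM, and ran from 0 to 4 (4 without 24-month mouse 32). Of all entries, 0.738% were called with edgeR, 4.07% with DESeq2 and 2% without 24-month mouse 32. For genes, transcripts and shares, the part of all features that passed under each alternative is not given here. These counts therefore do not show whether a change concerns the axis or the setting. The cause of these changes was not tested.

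Of single genes, transcripts and entries under the other alternatives, 242 values kept their direction and side of the threshold, 20 lost it, 4 gained it and 5 reversed. Libraries held 5.03 to 8.03 Gb, but reads per gene were not used as counts, so low genes such as Igf1 carry no counting interval.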

Other observations

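Some genes around the axis had a larger log2 fold change at 12 than at 24 months, a difference between the comparisons that was not tested. Sesn3, a FOXO target that restrains mTORC1, was 10.7 ± 2.16 (SD) FPKM at 3 months and 5.99 ± 0.722 FPKM at 12 months, lower without overlap, as in 0.667% of genes (log2 fold change −0.73 ± 0.13 SE, limma adjusted p = 0.0666), but 11.3 ± 2.19 FPKM at 24 months. Stat5b had a log2 fold change of 0.59 ± 0.15 (adjusted p = 0.121) at 12 against 3 months and 0.43 ± 0.14 at 24 against 3 months. In the collecting duct, the water channel Aqp2 was 69.6 ± 39.95 FPKM at 3 months and 27.0 ± 6.42 FPKM at 12 months (−1.17 ± 0.36, adjusted p = 0.191), and 33.7 ± 12.5 FPKM at 24 months (−0.92). These comparisons share the 3-month mice. Sesn3 and Aqp2 were chosen after their values were seen.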
